A study of Mus musculus with 13 samples.

Results

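The miR-130/miR-301 family is a set of microRNAs (miRNAs) named for the seed shared by their 3p arms, and it is described here across mouse Notch1-driven T-cell acute lymphoblastic leukaemia (T-ALL) and normal thymocytes. Its members were taken by name: miR-130b-3p, miR-301a-3p and every array name that begins with miR-130a or miR-301b. These are 6 of the 1122 mouse miRNAs on the array. The 2 members above background on all 13 arrays, miR-130b-3p and miR-301a-3p, were lower on all 6 T-ALL arrays than on all 6 thymocyte arrays, by 1.39-fold and 1.34-fold on average. Of the 229 tested miRNAs 19.7% did not overlap between these groups, in either direction, and 25.8% were called lower in T-ALL. The gaps between the groups were narrow for both members and closed under some other scalings. In contrast miR-721, which has the same seed and lies outside these names, was higher in T-ALL, by 9.37-fold in the fit and by a log2 fold change of 1.70 to 3.49 over the alternatives.

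The arrays were 1-colour Agilent miRNA arrays (Cy3), 13 in all, and the samples were FACS-sorted mouse cells on the C57BL/6 background. ES (early stage) and LS (late stage) are T-ALL samples with 3 biological replicates each: CD4+CD8+ spleen cells of mice that received bone marrow transformed with N1ICD, the constitutively active Notch1 intracellular domain. DN are CD4-CD8- and DP are CD4+CD8+ thymocytes from the thymus of mice for which no transgene or treatment is listed, also with 3 each, and M295 is a cultured T-ALL line of C57BL/6 origin with 1 array. All T-ALL cells came from spleen and all thymocytes from thymus, so disease, N1ICD and tissue cannot be told apart. The vector that carried N1ICD, the age of the mice and any pooling of animals are not given in the sources used here.

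A miRNA guides Argonaute to messenger RNAs mainly through its seed, the bases just after its 5′ end, so miRNAs that share a seed share many predicted targets. The miR-130/miR-301 family is known for repressing transcripts of TGF-beta signalling. In blood cells miR-130a is known from human progenitors and megakaryocytes, and miR-301a is known in mouse for promoting the Th17 fate of helper T cells.

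The mature sequences of the 3p members and of miR-721 are shown because their shared seed defines the family. They are RefSeq entries of GRCm38.p6, written 5′ to 3′ with bases 2 to 8, the seed, in capitals.
miR-130b-3p: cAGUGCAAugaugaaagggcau
miR-130a-3p: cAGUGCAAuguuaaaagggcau
miR-301a-3p: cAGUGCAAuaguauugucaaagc
miR-721: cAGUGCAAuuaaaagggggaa
miR-130a-3p had the same 22-base length as miR-130b-3p and differed from it at 2 positions, A11U and G13A (base in miR-130b-3p, position from the 5′ end, base in miR-130a-3p). miR-301a-3p and miR-721 each shared an unbroken run of 9 bases from the 5′ end with miR-130b-3p. Of the 6 names, 5 had a mature sequence in the table, all but miR-301b-3p. The 5p arms among the names, miR-130a-5p and miR-301b-5p, do not carry this seed. In all, 7 mature mouse miRNAs of that table had this seed, of which 4 were on the array, namely the 4 shown. The seed of miR-148a-3p (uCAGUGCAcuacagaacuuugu) is shown for comparison, since it holds AGUGCA, 6 of the 7 bases, shifted by 1 position.

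The genes lie on 4 chromosomes. miR-130b-3p and miR-130b-5p are the 2 arms of the hairpin of Mir130b (chr16:17124061-17124142, minus strand, GRCm38.p6), and both were measured, so the hairpin is shown with the 5p arm and then the 3p arm in capitals.
Mir130b: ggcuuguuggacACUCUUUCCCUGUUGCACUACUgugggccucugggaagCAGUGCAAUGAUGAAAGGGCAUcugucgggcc
In the same annotation Mir301b is the next gene on chromosome 16, with 0 genes between the 2, and both lie within the span of the protein-coding gene 2610318N02Rik. Mir301, the gene of miR-301a, lies on chromosome 11 within the span of Ska2, Mir130a lies on chromosome 2 outside any other gene, and Mir721 lies on chromosome 5 within Cux1. The annotation table gives whole gene spans, so exons and introns were not distinguished.

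Levels are log2 signals in which 0 is the 75th percentile of the 108 miRNAs detected on all 12 primary arrays, with a floor at -7.59. Each array had 115 to 257 mouse miRNAs above background, and the negative-control spots varied most on ES 1 (SD 19.0 intensity units, against at most 7.11 on any other array). ES 3 stood apart in miR-223-3p, a miRNA of myeloid cells: its level was 2.85 on ES 3, from -7.08 to -5.93 on the other ES arrays, from -6.69 to -6.54 on LS arrays, from -5.31 to -4.89 on DN arrays and from -7.31 to -6.79 on DP arrays. The erythroid markers miR-451 and miR-144-3p (miR-486-5p had no match among the array names) summed to between -5.57 and -1.36 on ES, -3.47 and 0.68 on LS, -0.41 and 0.02 on DN and -5.91 and -5.19 on DP, and both were above background on every DN array. miR-181a-5p, an abundant miRNA of DP thymocytes, was at -2.52 to 0.11 in ES, -0.99 to -0.01 in LS, -0.98 to -0.68 in DN and 1.80 to 1.96 in DP. The 6 epithelial markers summed to between -4.91 and -4.32 on ES and -4.54 and -4.04 on LS, above all DN (-5.01 to -4.94) and DP (-5.01 to -4.92) arrays. Of the 6, 0 to 2 were above background on T-ALL arrays and 0 on thymocyte arrays. A marker below the floor enters a sum at the floor, and -5.01 is the sum with all 6 there. The DN and DP sums thus lay at or near the floor, as did that of ES 1 (-4.91, with 0 above background). The 4 endothelial and stromal markers summed to between -5.59 and -5.32 on ES, -5.59 and -4.94 on LS, -4.20 and -4.16 on DN and -5.31 and -5.23 on DP. Of these 4, 1 was above background on each DN array and 0 on the others. miR-150-5p, a marker of mature lymphocytes, was at -7.43 to -1.85 in ES, -6.55 to -3.60 in LS, -4.94 to -4.11 in DN and -2.58 to -2.37 in DP. The part of these other cell types in the results below was not tested, and in sorted bulk samples fewer cells of a type and less RNA per cell cannot be told apart.

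miR-130b-3p (array name mmu-miR-130b-3p) was lower in T-ALL, and lowest on ES 3. Its log2 level was -1.25, -0.99 and -2.08 on ES 1 to 3, -1.08, -1.41 and -1.17 on LS 1 to 3, -0.83, -0.74 and -0.90 on DN 1 to 3, and -0.86, -0.87 and -0.97 on DP 1 to 3. All T-ALL values lay below all thymocyte values, but only 0.02 separated ES 2, the highest T-ALL array, from DP 3, the lowest thymocyte array. The group means were -1.44 ± 0.57 in ES, -1.22 ± 0.17 in LS, -0.82 ± 0.08 in DN and -0.90 ± 0.06 in DP (SD, n = 3 each). The order from high to low was thus DN, DP, LS, ES, with DN and DP overlapping and LS and ES overlapping.

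miR-301a-3p (array name mmu-miR-301a-3p) had a different order among thymocytes. Its log2 level was -2.75, -2.72 and -2.93 on ES 1 to 3, -2.83, -3.21 and -2.94 on LS 1 to 3, -2.66, -2.54 and -2.67 on DN 1 to 3, and -2.24, -2.21 and -2.50 on DP 1 to 3. DP arrays were the highest, DN arrays came next without overlapping them (as 76.0% of tested miRNAs did not overlap between DN and DP), and all T-ALL arrays lay below both, with 0.04 between ES 2 and DN 3. The means were -2.80 ± 0.11 in ES, -2.99 ± 0.20 in LS, -2.62 ± 0.08 in DN and -2.32 ± 0.16 in DP (SD, n = 3 each), and ES and LS overlapped.

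**Figure D1:**
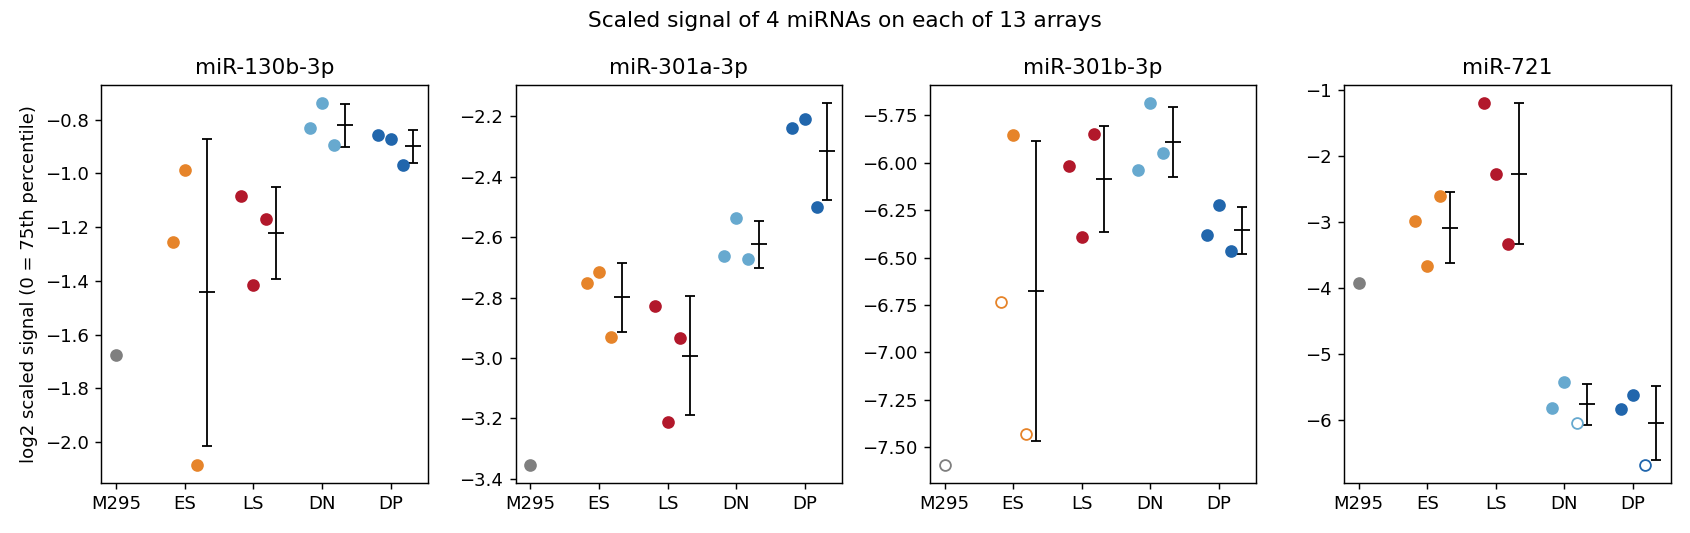
Log2 scaled signal (vertical axes, which differ between panels and do not start at 0) of miR-130b-3p, miR-301a-3p, miR-301b-3p and miR-721 on each of the 13 arrays, by group (M295, ES, LS, DN, DP). Filled circles are above background and open circles are not; bars are the mean and SD of 3 arrays. T-ALL arrays lie below thymocyte arrays for miR-130b-3p and miR-301a-3p, overlap them for miR-301b-3p and lie above them for miR-721.

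Across all T-ALL and all thymocyte arrays, both miR-130b-3p and miR-301a-3p fell. miR-130b-3p averaged -1.33 ± 0.40 in T-ALL and -0.86 ± 0.08 in thymocytes (SD, n = 6 each), a log2 fold change of -0.47 (SE 0.18, limma adjusted p = 0.0453). miR-301a-3p averaged -2.90 ± 0.18 in T-ALL and -2.47 ± 0.20 in thymocytes, a log2 fold change of -0.43 (SE 0.12, limma adjusted p = 0.0126). Thus 2 of the 3 tested members were called lower in T-ALL, where 25.8% of the 229 tested miRNAs were, and the 2 did not overlap between the groups, as 19.7% of tested miRNAs did not. The median log2 fold change was -0.43 over the 3 tested members and -0.12 over all tested miRNAs.

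The 2 calls differed in how firmly they stood. That of miR-301a-3p held when any 1 array was left out, with log2 fold changes of -0.47 to -0.37 and limma adjusted p up to 0.0372. That of miR-130b-3p was lost when any 1 of 9 arrays was left out (every LS, DN and DP array; limma adjusted p up to 0.0920). Without ES 3 its log2 fold change was -0.31 with a smaller adjusted p of 0.0228. The value table that the authors deposited gave -0.55 (limma adjusted p = 0.103) for miR-130b-3p and -0.60 (adjusted p = 0.0180) for miR-301a-3p. Scaling by the percentile of every mouse miRNA ended both calls (limma adjusted p = 0.293 for miR-130b-3p and 0.200 for miR-301a-3p). At most 257 of the 1122 mouse miRNAs were above background on an array, so that 75th percentile is a signal near the background. The replicate block ended the call of miR-130b-3p (limma adjusted p = 0.0530). On the linear intensities before scaling the groups overlapped: miR-130b-3p measured 510.1 to 892.0 in T-ALL and 727.5 to 1235 in thymocytes, and miR-301a-3p measured 211.8 to 283.7 in T-ALL and 212.2 to 489.1 in thymocytes.

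**Figure D2:**
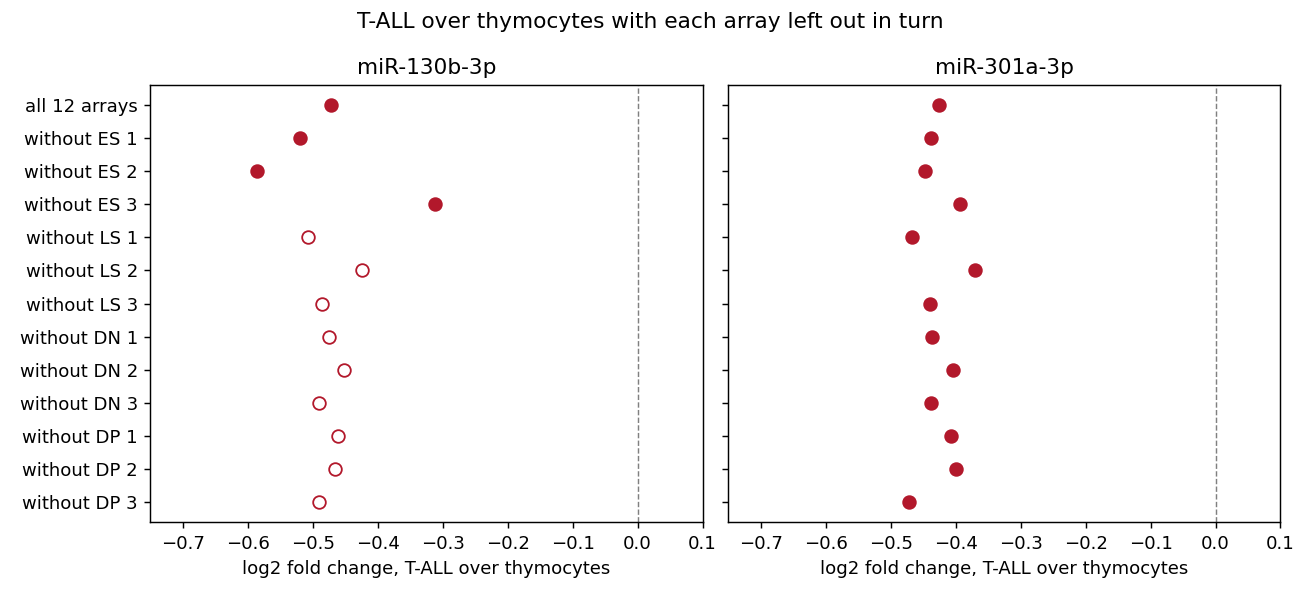
Log2 fold change of T-ALL over thymocytes (horizontal axis) for miR-130b-3p and miR-301a-3p with all 12 primary arrays and with each array left out in turn (rows). Filled circles have a limma adjusted p under 0.05 and open circles do not; miR-130b-3p ranges from -0.59 to -0.31 and miR-301a-3p from -0.47 to -0.37.

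Both miRNAs were read by 2 probes each. For miR-130b-3p probe 1 alone gave a log2 fold change of -0.51 (limma adjusted p = 0.0292) and probe 2 alone -0.45 (adjusted p = 0.0574). For miR-301a-3p probe 1 alone gave -0.38 (limma adjusted p = 0.0272) and probe 2 alone -0.56 (adjusted p = 0.00203). All of these probes were above background on all 13 arrays and gave the same sign. The primary arrays were on 2 slides that each held all 4 groups, but unevenly. Slide 1 held ES 1, ES 2, LS 1, LS 2, DN 1 and DP 1, and slide 2 held the others. Most T-ALL arrays were thus on slide 1 and most thymocyte arrays on slide 2. With slide as a block the log2 fold change was -0.55 for miR-130b-3p (limma adjusted p = 0.0334) and -0.44 for miR-301a-3p (adjusted p = 0.0208). Within slide 1, where DN 1 and DP 1 were the only arrays of their groups, it was -0.34 for miR-130b-3p and -0.43 for miR-301a-3p. Within slide 2, where ES 3 and LS 3 were the only arrays of their groups, it was -0.76 and -0.45. A single-slide fit takes its spread from the other groups alone, so calls made or lost within a slide assume that lone arrays vary like those.

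The comparisons with DP ask how T-ALL cells differ from the thymocytes with the same surface markers. miR-301a-3p was lower in LS than in DP, with a log2 fold change of -0.68 (SE 0.17, 1.60-fold, limma adjusted p = 0.00788), and this held without any 1 array (adjusted p up to 0.0350). In ES against DP it was -0.48 (SE 0.17, limma adjusted p = 0.0404), which was lost without any 1 of 8 arrays, and without ES 3 it was -0.42 (adjusted p = 0.0530). That call also ended with slide as a block (limma adjusted p = 0.0560) and with the replicate block (adjusted p = 0.0674), and with arrays scaled by the percentile of every mouse miRNA the value turned to 0.053. miR-130b-3p was not called in either: its log2 fold change was -0.32 in LS against DP (95% interval -0.89 to 0.25, limma adjusted p = 0.295) and -0.54 in ES against DP (-1.11 to 0.03, adjusted p = 0.104). Without ES 3 the miR-130b-3p value in ES against DP was -0.22. The 1 member called of 3 stands against 26.2% of tested miRNAs called lower in LS against DP and 25.3% in ES against DP. The split of all calls there moved with the scaling: 74 were higher and 60 lower in LS against DP, but 63 and 81 after quantile normalization, and 48 were higher and 58 lower in ES against DP, but 83 and 34 with the 75th percentile taken over every mouse miRNA. Within a single slide the miR-301a-3p value in LS against DP was -0.78 on slide 1 and -0.58 on slide 2, with limma adjusted p of 0.0952 and 0.0529. Slide 1 holds 1 DP array and slide 2 holds 1 LS array, so these p-values assume that the lone array varies like the other groups.

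Against DN thymocytes no member was called, where 33.2% of tested miRNAs were called in LS and 6.55% in ES. miR-130b-3p had a log2 fold change of -0.40 in LS (95% interval -0.97 to 0.17, limma adjusted p = 0.279) and -0.62 in ES (-1.19 to -0.05, adjusted p = 0.173). Without ES 3 the value in ES was -0.30, and that in LS was -0.40 with an adjusted p of 0.0325. miR-301a-3p had -0.37 in LS (-0.75 to 0.01, limma adjusted p = 0.132) and -0.18 in ES (-0.56 to 0.21, adjusted p = 0.512). Both miRNAs nevertheless had no overlap between either T-ALL stage and DN, as 57.6% of tested miRNAs did not in LS and 36.2% in ES.

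**Figure D3:**
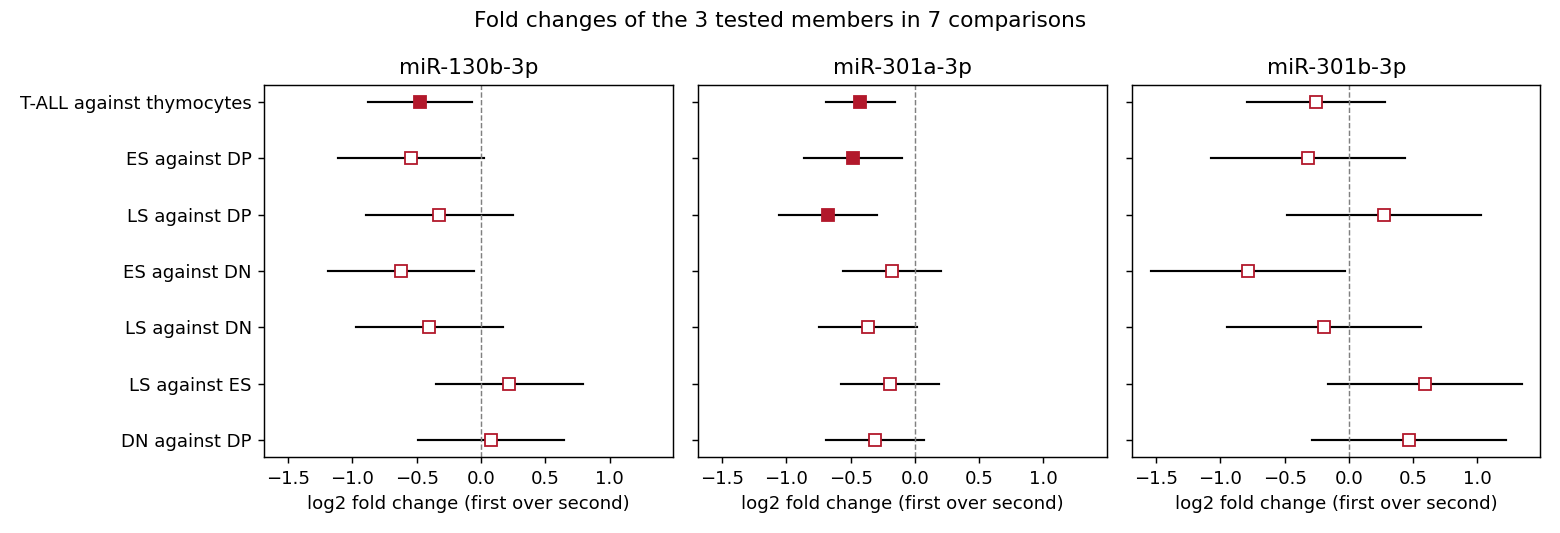
Log2 fold change (horizontal axis, first group over second) with its 95% interval for miR-130b-3p, miR-301a-3p and miR-301b-3p in 7 comparisons (rows). Filled squares have a limma adjusted p under 0.05; these are miR-130b-3p in T-ALL against thymocytes and miR-301a-3p in T-ALL against thymocytes, ES against DP and LS against DP.

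Between the stages of the disease no member was called, where 2.62% of tested miRNAs were. For LS against ES the log2 fold change was 0.22 for miR-130b-3p (95% interval -0.35 to 0.79, limma adjusted p = 0.646) and -0.10 without ES 3. For miR-301a-3p it was -0.19 (-0.57 to 0.19, limma adjusted p = 0.535). Between the thymocyte stages no member was called either, where 29.3% of tested miRNAs were. miR-130b-3p had a log2 fold change of 0.08 in DN against DP (-0.49 to 0.65, limma adjusted p = 0.838) and miR-301a-3p had -0.31 (-0.69 to 0.07, adjusted p = 0.214), where its probe 2 alone gave -0.54 (adjusted p = 0.0242) and probe 1 alone -0.23 (adjusted p = 0.377).

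The difference between miR-130b-3p and miR-301a-3p within an array does not change when the whole array is divided by 1 factor, although quantile normalization, which moves each value separately, can change it. Only changes in it are read, since probes of 2 miRNAs do not share a scale. It averaged 1.56 ± 0.37 in T-ALL and 1.61 ± 0.22 in thymocytes (SD, n = 6 each), and the difference of -0.05 was within the spread (exact permutation test over 924 arrangements, two-sided, p = 0.833). Within the groups it was 1.50, 1.73 and 0.85 on ES 1 to 3, 1.74, 1.80 and 1.77 on LS 1 to 3, 1.83, 1.80 and 1.78 on DN 1 to 3, and 1.38, 1.34 and 1.53 on DP 1 to 3. LS arrays thus overlapped DN arrays and lay above every DP array, and ES 3 was the lowest of all.

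This split was looked at after the values had been seen. The LS mean exceeded the DP mean by 0.35 and the DN mean exceeded the DP mean by 0.39, each with an exact permutation p of 0.10, the smallest that 3 against 3 arrays allow. LS and DN differed by -0.03 (exact permutation test, p = 0.30). The ES mean, which includes ES 3, was 0.41 below the LS mean and 0.45 below the DN mean (exact permutation p of 0.10 each) and differed from the DP mean by -0.06 (p = 0.90). Across the 12 primary arrays the 2 miRNAs had a Pearson correlation of 0.63 and a Spearman correlation of 0.82, and without ES 3 the Pearson correlation was 0.79. The points share the scaling of their array, and these correlations are descriptions.

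**Figure D4:**
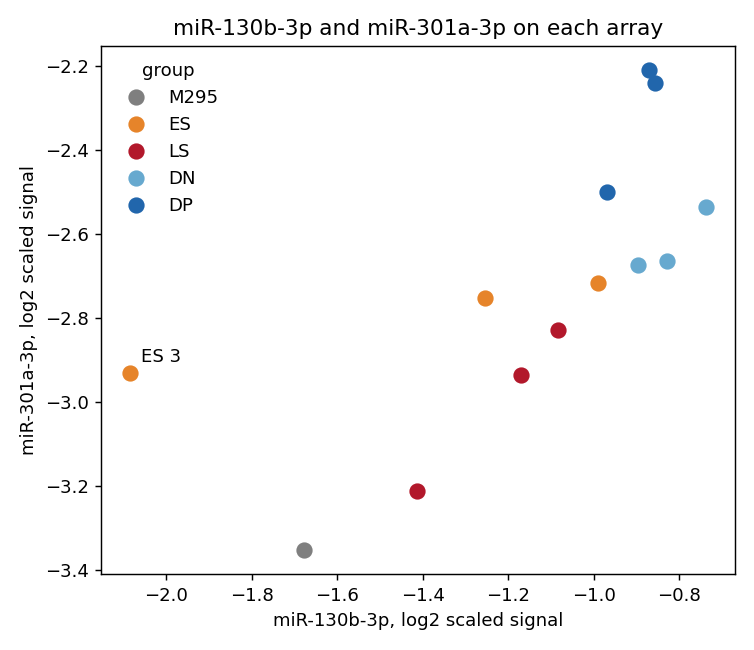
Log2 scaled signal of miR-130b-3p (horizontal axis) and miR-301a-3p (vertical axis) on each of the 13 arrays, coloured by group. The thymocyte arrays lie at the upper right, DP above DN, the T-ALL arrays lie to their lower left, and ES 3, marked, lies far to the left at -2.08 and -2.93.

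miR-301b-3p, encoded next to miR-130b, was close to the detection limit. Its log2 level was -6.74, -5.85 and -7.43 on ES 1 to 3, -6.02, -6.39 and -5.85 on LS 1 to 3, -6.04, -5.69 and -5.95 on DN 1 to 3, and -6.38, -6.22 and -6.47 on DP 1 to 3. It was above background on all LS, DN and DP arrays and on ES 2 alone of the ES arrays, and T-ALL and thymocyte levels overlapped. ES 1 had the most variable negative controls. Its probe 4 read an intensity of 43.2 with a share of 0 of the spots marked above background, where 44.2 on DP 3 had a share of 1. Its log2 fold change in T-ALL against thymocytes was -0.26 (SE 0.24, 95% interval -0.79 to 0.28, limma adjusted p = 0.394), and -0.07 without ES 3. It was not called in any of the 7 comparisons, of which the smallest limma adjusted p was 0.174, in ES against DN with a log2 fold change of -0.78. Its probes 1 and 2 were above background on none of the 13 arrays, and probes 3 and 4 were on 8 and 10. The level is the mean over all its probes, so probes 1 and 2 lower it. On DN 1 probes 3 and 4 alone read -5.38 and -4.69, against the level of -6.04. In T-ALL against thymocytes probe 3 alone gave a log2 fold change of -0.43 (limma adjusted p = 0.185) and probe 4 alone -0.14 (adjusted p = 0.630).

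miR-130b-5p, the other arm of the miR-130b hairpin, was as dim and showed the same low ES 3. Its log2 level was -6.35, -5.96 and -7.59 on ES 1 to 3, the last at the floor, -6.67, -6.50 and -5.91 on LS 1 to 3, -5.96, -5.85 and -5.97 on DN 1 to 3, and -6.34, -6.33 and -6.42 on DP 1 to 3. Its probes 1 and 2 were above background on no array but enter the mean and lower these levels. On ES 3 probes 3 and 4 alone read -7.28 and -6.57, above the floor though not above background, and each was lowest there. The log2 fold change in T-ALL against thymocytes was -0.35 (SE 0.26, 95% interval -0.93 to 0.22, limma adjusted p = 0.276), not beyond the spread. The levels of all 3 readouts of the chromosome 16 pair, miR-130b-3p, miR-130b-5p and miR-301b-3p, were thus lowest on ES 3 of all the primary arrays. Probe 3 of miR-301b-3p alone was lower on ES 1 (-6.89) than on ES 3 (-6.66). Over the 12 primary arrays miR-130b-3p had a Pearson correlation of 0.84 with miR-130b-5p and 0.81 with miR-301b-3p, and without ES 3 these were 0.47 and 0.46.

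miR-130a-3p, the family member known from blood progenitors, was above background on 1 primary array of 12, DP 2. Its background-subtracted intensity on T-ALL arrays was -11.0, 2.81 and 11.4 on ES 1 to 3 and 3.54, -3.12 and 1.97 on LS 1 to 3. On thymocyte arrays it was 8.49, 9.90 and 11.8 on DN 1 to 3 and 24.6, 31.5 and 21.1 on DP 1 to 3. The DP arrays were the brightest, but with 1 array above background no fold change was formed and miR-130a-3p was not tested. miR-130a-5p, miR-301b-5p and the other arm miR-301a-5p were not well above background on any of the 13 arrays. In all, 3 of the 6 members entered the fit.

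**Figure D5:**
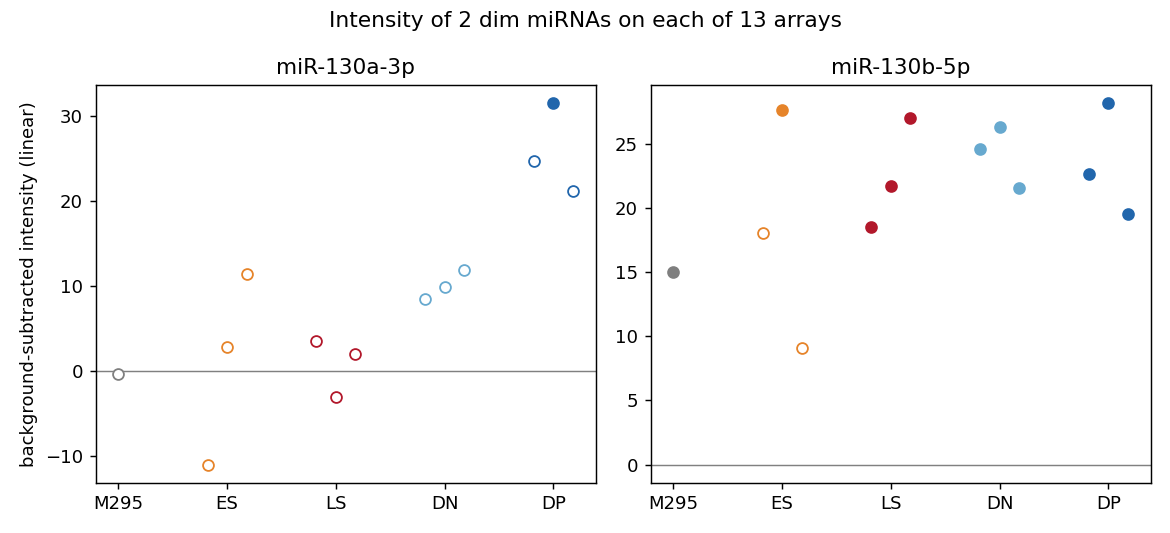
Background-subtracted linear intensity (vertical axes) of miR-130a-3p and miR-130b-5p on each of the 13 arrays, by group (M295, ES, LS, DN, DP). Filled circles are above background and open circles are not; miR-130a-3p reaches 31.5 on DP 2, its single array above background, and miR-130b-5p is lowest on ES 3.

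miR-721, a mouse miRNA whose gene lies within Cux1, was the other array miRNA with the family's seed, and it ran the opposite way. Its log2 level was -2.99, -3.67 and -2.61 on ES 1 to 3, -1.20, -2.27 and -3.34 on LS 1 to 3, -5.83, -5.43 and -6.05 on DN 1 to 3, and -5.83, -5.62 and -6.68 on DP 1 to 3. Every T-ALL array exceeded every thymocyte array, by at least 1.76 on the log2 scale. Of the tested miRNAs 19.7% did not overlap between these groups, in either direction. Of the tested miRNAs 31.4% were called higher in T-ALL against thymocytes, 32.3% in LS against DP and 21.0% in ES against DP. The log2 fold change was 3.23 in T-ALL against thymocytes (SE 0.36, limma adjusted p = 1.50e-04), 3.78 in LS against DP (SE 0.51, adjusted p = 2.24e-04) and 2.95 in ES against DP (SE 0.51, adjusted p = 0.00105). Its 4 probes alone gave between 3.16 and 3.26 for T-ALL against thymocytes. Over all alternatives that value ran from 1.70 to 3.49, and within slide 1 it was not called (limma adjusted p = 0.0562). It was above background on 2 of 3 DN and 2 of 3 DP arrays, so it entered the tested set only through the T-ALL groups, where it was high. Its p-values against thymocytes are therefore not free of that selection. LS against ES was not called (log2 fold change 0.82, limma adjusted p = 0.401).

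M295, the cultured line, had the same low levels or lower ones. miR-301a-3p was at -3.35 in M295, below all 6 primary T-ALL arrays (-3.21 to -2.72), and miR-130b-3p was at -1.68, within their range (-2.08 to -0.99). miR-301b-3p was not above background in M295, whose within-array difference of miR-130b-3p and miR-301a-3p was 1.68. With 1 array of M295 no test was made.

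Lists of miRNAs with a related seed were read in T-ALL against thymocytes, where 25.8% of tested miRNAs were called lower and 31.4% higher. Of the offset-seed list, miR-148a-3p fell (fitted log2 fold change -3.30, SE 0.73, limma adjusted p = 0.00392), miR-148b-3p was not called (0.16, SE 0.16, adjusted p = 0.427), and miR-152-3p was above background on no array. miR-148a-3p was at -5.01, -7.59 and -2.65 on ES 1 to 3 and -5.23, -7.59 and -7.59 on LS 1 to 3, against -3.14 to -2.15 on thymocyte arrays, so ES 3 lay among the thymocyte values. Only ES 3 and LS 1 of the T-ALL arrays were above background and 3 were at the floor, so the size of the fall depends on the floor. miR-148a-3p thus entered the tested set only through thymocyte arrays, where it was high, and its p-value is not free of that selection. Over the alternatives its log2 fold change ran from -3.91 to -1.45, and within slide 1 it was not called (limma adjusted p = 0.137). Of the miR-17 seed list, known for driving proliferation in lymphocytes, 5 of 6 names were on the array and tested, and none was called in T-ALL against thymocytes by limma (0 also at an unadjusted p under 0.05). Their median log2 fold change was -0.26, against -0.12 over all tested miRNAs.

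The miRNAs most like each member over the 12 primary arrays were named by the 3 highest Pearson correlations of log2 levels. For miR-130b-3p these were miR-181d-5p (0.92), miR-92a-3p (0.90) and let-7d-5p (0.88), and without ES 3 the same 3 had 0.77, 0.62 and 0.83. For miR-301a-3p they were let-7i-5p (0.92), let-7g-5p (0.88) and miR-25-3p (0.82), and without ES 3 these had 0.93, 0.97 and 0.86. The likeness of miR-130b-3p to miR-92a-3p was thus the one that changed most when ES 3 was left out.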

How the data were processed

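The deposited scanner files hold the intensity of each spot from 1-colour Agilent arrays, read with Feature Extraction 10.7.3.1 per the file headers. The authors also deposited log2 values per miRNA and array, used here as an alternative. They rank the miRNAs of each array as the software's total intensity does, and all arrays have the median 3.29. The same value also recurs across arrays, as after quantile normalization (miR-130b-3p was at 9.224214712 on DN 1, DP 2, DP 3, ES 1 and ES 2). The method is not named in the sources used here. These values and the quantile normalization used here are therefore not separate checks. Tools listed in the submitters' processing notes are RMA, affy, MAS5 and GCOS, with no role or version. From the background-subtracted intensity, control and outlier spots (4.03 to 8.60% per array) were dropped, then linear means were taken over the spots of a probe and over the probes of a miRNA. Arrays were scaled to a common 75th percentile of 108 miRNAs that were above background on all 12 primary arrays, floored at -7.59 and put on the log2 scale. A miRNA is above background where at least 50% of the kept spots of a probe are marked so. Mouse miRNAs above background throughout at least 1 group of 3 arrays (229) were fitted over 12 arrays with limma 3.58.1 (R 4.3.3; lmFit, eBayes; files read with data.table, version 1.17.8), tested on simulated data, with Benjamini-Hochberg adjusted p-values within each of 7 comparisons and a threshold of 0.05. Named miRNAs were the family names, the other arms, same-seed, offset-seed and miR-17 seed miRNAs, and the 3 most correlated with each main member. The members and lists were chosen with earlier results of these data known. Replicate numbers met the pairing rule only for LS and DP (correlations of deviations from group means 0.22, 0.18 and 0.50).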

Additional observations from a re-analysis of the deposited data

Results flagged for a closer look

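miR-721, which shares the family's seed, had a log2 level of -3.92 in the M295 line. This array entered no test, and its level was above every thymocyte array, of which the highest was -5.43, and below all 6 primary T-ALL arrays. M295 has 1 array, so the difference has no replicate check.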

How the results depend on the processing

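Of the alternatives tried, miR-301a-3p kept its direction and its call in T-ALL against thymocytes in 25 of 27 and in LS against DP in 25 of 28, in ES against DP in 9 of 27, and miR-130b-3p kept its call in T-ALL against thymocytes in 11 of 27. In T-ALL against thymocytes miR-130b-3p lost its call with the authors' value table (log2 fold change -0.55, limma adjusted p = 0.103), quantile normalization (-0.56, 0.112), scaling over all mouse miRNAs (-0.45, 0.293), probe 2 alone (-0.45), every mouse miRNA tested (-0.47, 0.175) and within slide 1 (-0.34). With arrays left out in turn it ran from -0.59 to -0.31. miR-301a-3p lost that call when scaled over all mouse miRNAs (-0.41, 0.200) and within slide 1 (-0.43). In LS against DP miR-301a-3p lost its call when scaled over all mouse miRNAs (-0.88, 0.0525), within slide 1 (-0.78) and within slide 2 (-0.58). In ES against DP it lost its call with the authors' value table (-0.45), normexp (-0.33), the 2 groups fitted alone (-0.48), probe 1 (-0.38), quantile normalization (-0.51), slide as a block (-0.50) and within slide 1 (-0.50) and slide 2 (-0.58), ran from -0.58 to -0.42 with arrays left out, and turned to 0.053 when scaled over all mouse miRNAs. That scaling moved the median of all tested miRNAs in ES against DP to 0.59, against 0.07 in the main scaling, and relative to these medians miR-301a-3p was at -0.53 and -0.56. It also moved the median in LS against ES to -0.38, against 0.28. The cause of the lost calls was not tested.

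The replicate block, with the replicate number as a block in the fit of all groups, gave miR-130b-3p -0.47 in T-ALL against thymocytes (limma adjusted p = 0.0530) and miR-301a-3p -0.48 in ES against DP (adjusted p = 0.0674), so both calls were lost. It changed no other call of a member. Of 18 same-numbered pairs of arrays 6 had correlated deviations over 0.1 (range -0.34 to 0.50), which included all 3 of LS and DP. In a block fit of LS and DP alone, added after the data had been seen, miR-301a-3p kept its call (-0.68, limma adjusted p = 0.0395).

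Values past the threshold in an alternative alone were, for miR-130b-3p, ES against DN within slide 2 (-1.27), ES against DP within slide 2 (-1.16), LS against ES within slide 2 (0.91) and LS against DN with those groups alone (-0.40). Slide 2 holds 1 ES array, ES 3, and 1 LS array, LS 3, so LS against ES there compares single arrays, and such p-values assume that lone arrays vary like the other groups. With arrays left out ES against DN ran from -0.85 to -0.30 and ES against DP from -0.77 to -0.22, both called without ES 2. Likewise LS against DN ran from -0.47 to -0.31 and was called without ES 3. For miR-301a-3p they were DN against DP with those groups alone (-0.31) and with probe 2 (-0.54), and LS against DN after quantile normalization (-0.86). For miR-301b-3p they were DN against DP with those groups alone (0.47), and within slide 2 ES against DN (-1.62), ES against DP (-1.09), LS against ES (1.59) and T-ALL against thymocytes (-0.56). For miR-130b-5p it was T-ALL against thymocytes within slide 2 (-0.61). Without single arrays miR-301b-3p ran from -1.19 to -0.41 in ES against DN, from -0.73 to 0.061 in ES against DP and from -0.46 to -0.067 in T-ALL against thymocytes, each called without ES 2.

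Besides miR-301a-3p in ES against DP (0.053 when scaled over all mouse miRNAs, as given above), signs turned for uncalled values. The within-array difference of miR-130b-3p and miR-301a-3p was 0.049 with the authors' value table, 0.13 after quantile normalization, 0.083 within slide 1 and from -0.10 to 0.10 with arrays left out, where ES 3 turned it. miR-130b-3p turned in DN against DP with the authors' value table (-0.10) and quantile normalization (-0.086), and in LS against ES when scaled over all mouse miRNAs (-0.52), within slide 1 (-0.13) and without ES 3, in a range of -0.10 to 0.45. miR-301a-3p turned in ES against DN when scaled over all mouse miRNAs (0.064). miR-301b-3p turned in ES against DP with the authors' value table (0.050), normexp (0.23), quantile normalization (0.053), scaling over all mouse miRNAs (0.28) and within slide 1 (0.084), and in LS against ES with normexp (-0.10) and scaling over all mouse miRNAs (-0.21). miR-148b-3p turned in T-ALL against thymocytes with the authors' value table (-0.10) and quantile normalization (-0.17). miR-721 turned in LS against ES within slide 2 (-0.73) and in DN against DP without DP 3, in a range of -0.041 to 0.49.

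The absence of overlap between T-ALL and thymocytes was lost for both main members with the authors' value table, quantile normalization and scaling over all mouse miRNAs, and for miR-301a-3p also with normexp. The number of called miRNAs over all tested moved by over 1.5 times within slide 1 in T-ALL against thymocytes (30, against 131) and LS against DP (56, against 134). It ran from 29 to 165 in ES against DP (main 106), 0 to 137 in ES against DN (main 15), 3 to 118 in LS against DN (main 76), 0 to 114 in LS against ES (main 6) and 18 to 164 in DN against DP (main 67). Probes that were above background on no array gave no value alone. miR-301b-3p, miR-130b-5p and miR-130a-3p lie near the background, which limits what the arrays can show of them.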
